A study of Mus musculus with 27 samples.

Results

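*Cbfa2t3*, the gene of the co-repressor ETO2, was depleted in mouse erythroleukaemia (MEL) cells with either of 2 short hairpin RNAs (shRNAs), sh2 and sh3, and the libraries of the hairpins are compared here with each other. The comparison holds 4 of the 27 samples of the series, 2 replicate libraries of sh2 and 2 of sh3, chosen by their labels alone, and takes in every gene of their count table. MEL cells are a line of erythroid progenitors that were transformed by a virus and can be induced to mature. Lentiviruses delivered the hairpins, and RNA was taken 72 h after transduction. The labels call the 2 control libraries Eto2 WT, and by the methods the controls carried a non-targeting shRNA, so that all 6 libraries came from cells carrying a hairpin. The controls were used only to place the direction of a change. Comparisons with other libraries used 2 of *Irf2bp2* KD and 2 of its own control, and 4 of MEL cells before and after induction.

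ETO2 has no DNA-binding domain of its own. It is held at erythroid genes by the LDB1 complex, in which GATA1 and TAL1 bind DNA, and keeps late erythroid genes low in progenitors until differentiation. A short hairpin RNA is cut in the cell to a small RNA that guides the cleavage of a transcript to which it pairs along its length. Such small RNAs can also lower other transcripts, mostly through pairing of their bases 2 to 8, the seed, with sites in a 3′ UTR. Genes that follow the residual target and genes that follow the hairpin can therefore be asked about separately when 2 hairpins leave different amounts of target RNA.

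The hairpin libraries held 48974735 to 57684583 counted reads and the controls 50785618 and 56707826. A floor of 3 counts lay at 0.052 to 0.0613 CPM, the unit of level used here (counts relative to library size, scaled by edgeR's TMM factors), in the 6 libraries. The 10 largest genes took 4.66 to 5.38% of the counts of a library. Replicates are described as independent by the methods, and p-values measure only the spread between them. RNA came from whole cultures, in which fewer cells of a type and less RNA per cell cannot be told apart.

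*Cbfa2t3* (chr8:125152639-125223009, minus strand, mm9) was at 400.2 and 427.1 CPM in the controls, 202 and 243.5 CPM with sh2 and 123 and 145.3 CPM with sh3. The groups did not overlap, and the sh2 libraries lay between the others. The mean with sh2 was 222.8 ± 29.31 CPM (SD, n = 2), or 53.9% of control, and with sh3 134.2 ± 15.72 CPM (SD, n = 2), or 32.4%. The difference between the hairpins was a log2 FC of -0.74 ± 0.10 (SE; adjusted p = 0.00358). All adjusted p-values are those of the quasi-likelihood test of edgeR, adjusted by the Benjamini-Hochberg method over all tested genes. On the log2 scale the sh2 libraries had gone 0.552 of the way from control to sh3. In *Irf2bp2* KD the level of *Cbfa2t3* differed from its control by a log2 FC of -0.06 (adjusted p = 0.573, edgeR).

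Genes were called where the adjusted p did not exceed 0.05 and the log2 FC was at least 0.5 in size. Between the hairpins 413 of 12360 tested genes were called (3.34%), of which 221 were higher with sh3 (1.79%) and 192 lower (1.55%). The balance of directions was not stable: with a replicate block 286 were higher and 336 lower, and without replicate 1 of sh2 293 were higher and 322 lower. Without the limit on the fold, 1268 genes (10.3%) passed. In the fit of all 6 libraries, 887 of 12537 genes (7.08%) were called for sh2 against control (3.37% higher, 3.71% lower) and 1100 (8.77%) for sh3 against control (4.25% higher, 4.52% lower). These comparisons share the control libraries, and their values are therefore given side by side only.

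The 413 genes were divided by the order of their libraries. Graded genes, in which both hairpins lay beyond the controls on the same side and sh3 further, numbered 98 (54 higher and 44 lower with sh3). In 72 genes only sh3 left the range of the controls (23 higher, 49 lower), and in 56 only sh2 did (40 higher with sh3, 16 lower). In 148 genes the hairpins lay on opposite sides of the controls (81 higher with sh3, 67 lower). In 39 genes both lay on the same side but sh2, with more *Cbfa2t3* left, further than sh3 (23 higher with sh3, 16 lower). These counts depend on the 2 control libraries. Without control replicate 1 or 2, graded genes numbered 116 or 108, those with sh3 alone 39 or 36, those with sh2 alone 25 or 27, opposed genes 188 or 184 and reversed genes 45 or 58. Graded order was thus found in 23.7% of called genes and in 12.7% of all genes tested, and opposed order in 35.8% and 6.51%. The shares among all tested genes were 13.3% for sh3 alone, 10.3% for sh2 alone and 8.02% for the reversed order. The calls rest on the difference between the hairpins, which helps to set this order, so the shares are given as a description. The libraries of the hairpins did not overlap in 55.1% of all tested genes.

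**Figure D1:**
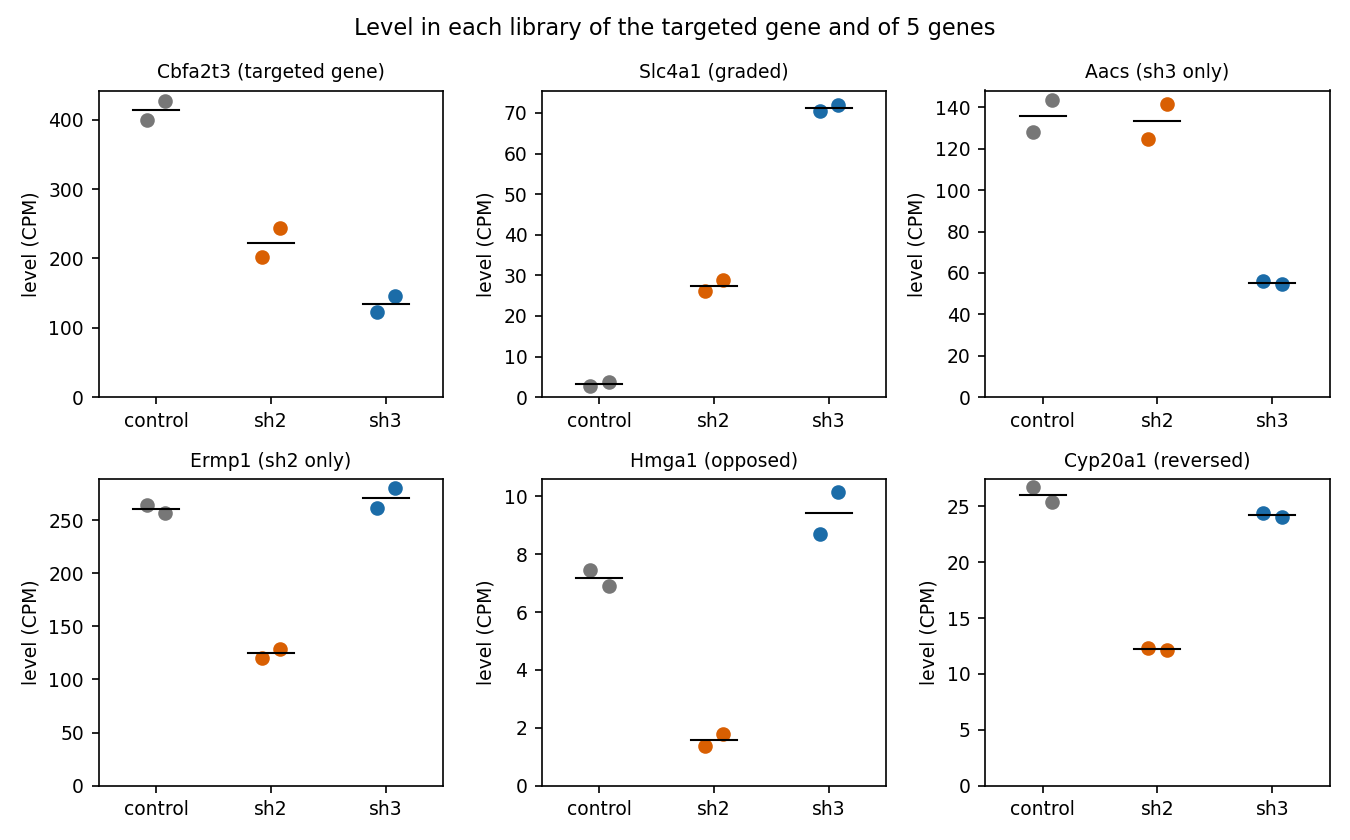
Level (CPM, linear axis) of *Cbfa2t3* and of a gene of each kind of order in the 6 libraries; points are single libraries and lines the mean of 2. *Slc4a1* rose stepwise to about 70.6 and 72.1 CPM with sh3, whereas *Ermp1* was low with sh2 alone, *Cyp20a1* far lower with sh2 than with sh3, and *Aacs* low with sh3 alone.

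**Figure D2:**
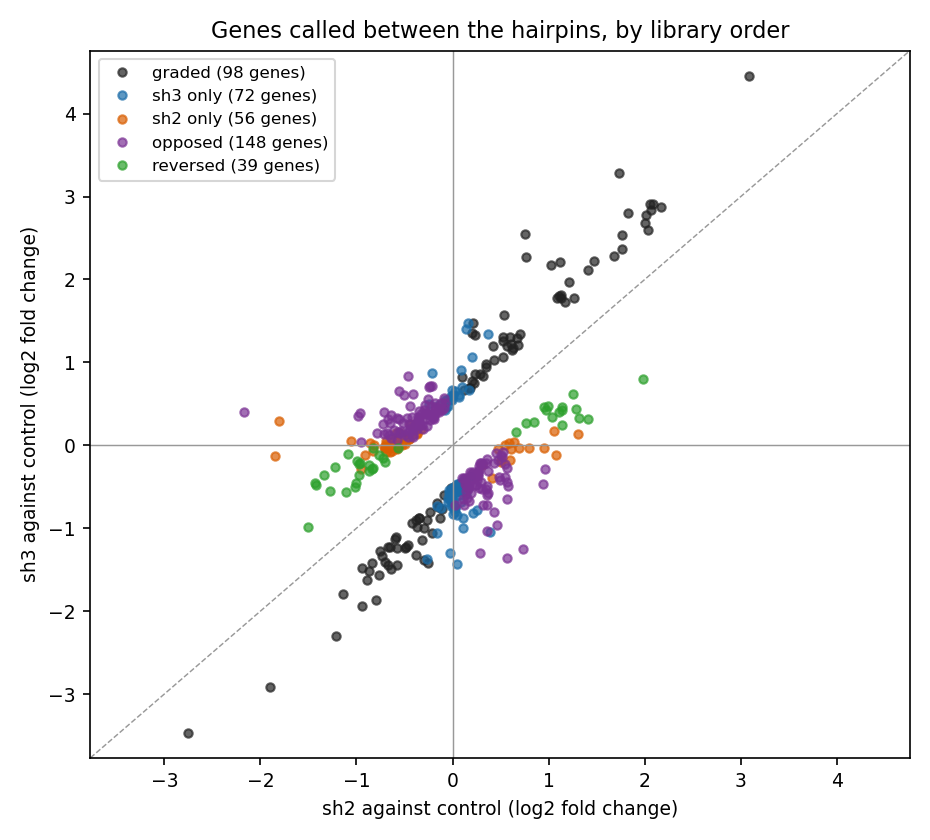
Log2 FC of sh2 against control (horizontal) and of sh3 against control (vertical) for the 413 called genes, coloured by the order of their libraries, with a dashed line of equal change. The axes share the control libraries; the 148 opposed genes occupy the upper left and lower right, and the graded genes lie further from 0 on the vertical axis.

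Among the graded genes that rose were genes of the mature red cell. *Slc4a1*, the anion exchanger band 3 of the red cell membrane, was at 2.75 and 3.70 CPM in the controls, 26.1 and 28.8 CPM with sh2 and 70.6 and 72.1 CPM with sh3. No group overlapped another, and the log2 FC between the hairpins was 1.37 ± 0.07 (SE; adjusted p = 5.37e-05, edgeR). *Hbq1b*, a theta globin gene, was at 5.63 and 5.27 CPM in the controls, 18.8 and 17.5 CPM with sh2 and 58.7 and 47.2 CPM with sh3. Its near copy *Hbq1a* went from 2.49 and 2.47 CPM in the controls to 8.11 and 7.80 CPM with sh2 and 11.6 and 12.5 CPM with sh3, and reads could have been split between both. All of these genes kept the order control, sh2, sh3 in every library.

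Of 9 genes of haem synthesis, *Alas2* and *Uros* were called, both higher with sh3 (1.79% of all tested genes were). *Alas2*, the erythroid form of the enzyme that starts the pathway, was at 69.7 and 68.6 CPM in the controls, 258.9 and 209.4 CPM with sh2 and 376.7 and 338.4 CPM with sh3 (log2 FC between the hairpins 0.61 ± 0.10 SE, adjusted p = 0.0078, edgeR). Against control 7 of the 9 were called higher with sh2 (3.37% of all tested genes were), and 8 higher and 1, the housekeeping *Alas1*, lower with sh3 (4.25% and 4.52% of all tested genes). The median log2 FC of the list was 0.80 for sh2 and 1.07 for sh3, and 0.31 between the hairpins, where the median of all tested genes was -0.004. *Alas2* and *Uros* fell under the fold limit, at log2 FCs of 0.46 and 0.44, when replicate 2 of sh2 was left out.

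Of 31 genes of the red cell membrane, 5 were called, each higher with sh3 (1.79% of all tested genes were), among them *Slc4a1*, *Epb4.2*, *Aqp9* and *Cd24a*. *Epb4.2*, which anchors band 3 to the membrane skeleton, was at 9.81 and 9.24 CPM in the controls, 41.5 and 36.5 CPM with sh2 and 57.4 and 57.5 CPM with sh3. *Cd24a* did not share this order: it was at 332 and 323.6 CPM in the controls, 234.6 and 205.5 CPM with sh2 and 326 and 310.2 CPM with sh3, and so stood apart with sh2 only. *Epb4.2* went under the fold limit without replicate 2 of sh2 (log2 FC 0.46), and *Cd24a* without that library (0.43) or without replicate 1 of sh3 (0.49). *Slc25a37*, the mitochondrial iron importer mitoferrin 1, and *Abcg2*, a haem and porphyrin exporter, were the 2 of 18 iron and haem transport genes that were called, both higher and graded. *Slc25a37* was at 93.5 and 102 CPM in the controls, 148.2 and 147.1 CPM with sh2 and 229.7 and 254.3 CPM with sh3. Of 26 late erythroid regulators and maturation genes, *Trim10* and *Trim58* were higher with sh3. *Trim10* was graded, with 52 and 51.7 CPM in the controls, 117.4 and 109.3 CPM with sh2 and 174.3 and 181.1 CPM with sh3. *Trim58*, a ubiquitin ligase of maturing red cells, was opposed, with 16.6 and 15.3 CPM in the controls, 13.2 and 13.8 CPM with sh2 and 19.3 and 20.1 CPM with sh3.

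Not all erythroid genes kept the order control, sh2, sh3. *Hba-x*, the embryonic zeta globin gene, was at 27.8 and 37.8 CPM in the controls, 163.4 and 49.4 CPM with sh2 and 119.3 and 83.8 CPM with sh3. The hairpins overlapped, with a wide spread between replicates, and the log2 FC between them was -0.07 ± 0.42 (SE; adjusted p = 0.939, edgeR). With this spread, whether *Hba-x* scaled with residual *Cbfa2t3* cannot be decided. *Hbq1a* and *Hbq1b* were the called genes of 5 tested in the list of globins and their chaperone, both higher with sh3 (1.79% of all tested genes were). Of the 14 symbols of this list 8 were in the counts. Beta globin also stood under the joint name Hbb-b2+Hbb-bt, which the list did not hold, so adult globins may lie outside it. Of 35 other genes of the LDB1 complex and of co-repressors, a list that leaves out *Cbfa2t3* itself, edgeR called 0 between the hairpins and DESeq2 0, while 13 had an unadjusted p under 0.05, and their median log2 FC was 0.009. With edgeR 3.34% of all tested genes were called, so a count of 0 in a list of this size lies near that share.

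Graded genes that fell included a pair of surface proteins of other cell types. *Thy1*, a surface glycoprotein of T cells and stromal cells, was at 44.1 and 50.1 CPM in the controls, 10.5 and 14.7 CPM with sh2 and 6.15 and 6.30 CPM with sh3. *Pdgfrb*, a receptor for platelet-derived growth factor, was at 6.12 and 7.81 CPM in the controls, 3.07 and 4.97 CPM with sh2 and 1.63 and 2.16 CPM with sh3. These were the 2 called among 9 stromal and endothelial genes tested, where 1.55% of all tested genes were called lower. Their summed level went from 93.2 and 96.1 CPM in the controls to 51.2 and 53.3 CPM with sh2 and 40.3 and 31.8 CPM with sh3. *Thy1* alone went from a mean of 47.1 CPM in the controls to 12.6 CPM with sh2 and 6.23 CPM with sh3 and so made up most of the change of this sum. The median log2 FC of the list was 0.03 for sh2 against control and -0.49 for sh3, with 3 of the 9 called lower with each (3.71% and 4.52% of all tested genes were). Of 4 tested lymphoid markers edgeR called 0 (3.34% of all tested genes were called) and DESeq2 0, with 1 at an unadjusted p under 0.05. The summed level of the lymphoid list lay between 4.63 and 5.90 CPM in all libraries. The part of other cells in these falls was not tested.

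Whether a gene lay where residual *Cbfa2t3* would put it was asked with 1 contrast in the 6-library fit. It compares sh2 with the point 0.552 of the way from control to sh3, on the log2 scale of each gene. Of 12537 genes 364 (2.9%) departed from this point. Among the genes called between the hairpins 189 of 413 departed, and by order these were 9 of 98 graded genes, 8 of 72 with sh3 alone, 48 of 56 with sh2 alone, 85 of 148 opposed and 39 of 39 reversed genes. Libraries are shared with the calls, so these counts describe the classes and test nothing further. The order of a gene and the fold limit help to set them. With sh2 placed by linear *Cbfa2t3* levels, at 0.683 of the way, 226 of the 413 departed. *Hbq1b*, *Slc25a37* and *Trim10* lay within 0.15 of the point (departures of -0.07, -0.13 and 0.15, adjusted p of 0.673, 0.179 and 0.0747, edgeR). *Slc4a1* lay above it by 0.62 ± 0.09 (SE; adjusted p = 0.00108, edgeR). That departure was 0.04 (adjusted p = 0.832, edgeR) when the position of sh2 was taken from linear *Cbfa2t3* levels, at 0.683 of the way.

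Genes outside the graded order included the one with the largest log2 FC of sh3 over sh2 among the called genes. *Hmga1*, a chromatin protein of growing cells, was at 7.46 and 6.89 CPM in the controls, 1.38 and 1.80 CPM with sh2 and 8.70 and 10.2 CPM with sh3. The log2 FC between the hairpins was 2.57 ± 0.16 (SE; adjusted p = 9.94e-05, edgeR), in a gene with close copies elsewhere in the genome. *Ccnd2*, the gene of cyclin D2, which drives entry into the cell cycle, was at 361.6 and 349.5 CPM in the controls, 172.7 and 191 CPM with sh2 and 462 and 467.9 CPM with sh3. *Bcl2*, an inhibitor of cell death, was at 230.1 and 228.7 CPM in the controls, 155.7 and 153.3 CPM with sh2 and 227 and 222 CPM with sh3. *Hmga1* and *Ccnd2* were opposed and *Bcl2* was reversed, and in each the sh2 libraries lay further from the controls than the sh3 libraries did. *Ccnd2*, *Csf2rb* and *Bcl2* were the called genes among 23 progenitor and leukaemia regulators, each higher with sh3 (1.79% of all tested genes were), and *Csf2rb*, a cytokine receptor chain, was graded. *Csf2rb* went under the fold limit without replicate 1 of sh2 (log2 FC 0.44) or replicate 2 of sh3 (0.45).

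On the side of sh3, *Adipor1*, an adiponectin receptor, was at 111.2 and 115.5 CPM in the controls, 130.6 and 144.9 CPM with sh2 and 46 and 46.2 CPM with sh3. *Tmem258*, a subunit of the enzyme that attaches glycans in the endoplasmic reticulum, was at 76.3 and 86.7 CPM in the controls, 82.2 and 86.6 CPM with sh2 and 30.7 and 29.6 CPM with sh3. *Aacs*, which makes acetoacetyl-CoA in the cytosol, was at 128.3 and 143.7 CPM in the controls, 124.8 and 141.8 CPM with sh2 and 55.9 and 54.6 CPM with sh3. The sh2 libraries of *Tmem258* and *Aacs* overlapped the controls, and the sh3 libraries lay far under both. Their log2 FCs between the hairpins were -1.58 for *Adipor1*, -1.49 for *Tmem258* and -1.27 for *Aacs*, each with an SE of 0.06 to 0.07 (adjusted p of 2.32e-05, 2.32e-05 and 8.28e-05, edgeR). *Cttnbp2* rose with sh3 alone, with 15.2 and 13.8 CPM in the controls, 18.7 and 13.6 CPM with sh2 and 42.6 and 38 CPM with sh3.

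Several of the largest log2 FCs came from genes near the floor. *Dact1* had 4 and 3 counts with sh2, against 12 and 21 with sh3 and 16 and 11 in the controls. *Mx2* had 6 and 5 counts with sh2 against 21 and 18 with sh3, and *Derl3* 15 and 19 counts with sh2 against 3 and 6 with sh3. *Gm5741* had 15 and 14 counts with sh2 against 3 and 5 with sh3. The calls of these 4 genes were lost with DESeq2 in place of edgeR and without at least 1 of the hairpin libraries, and no fold is given for them.

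**Figure D3:**
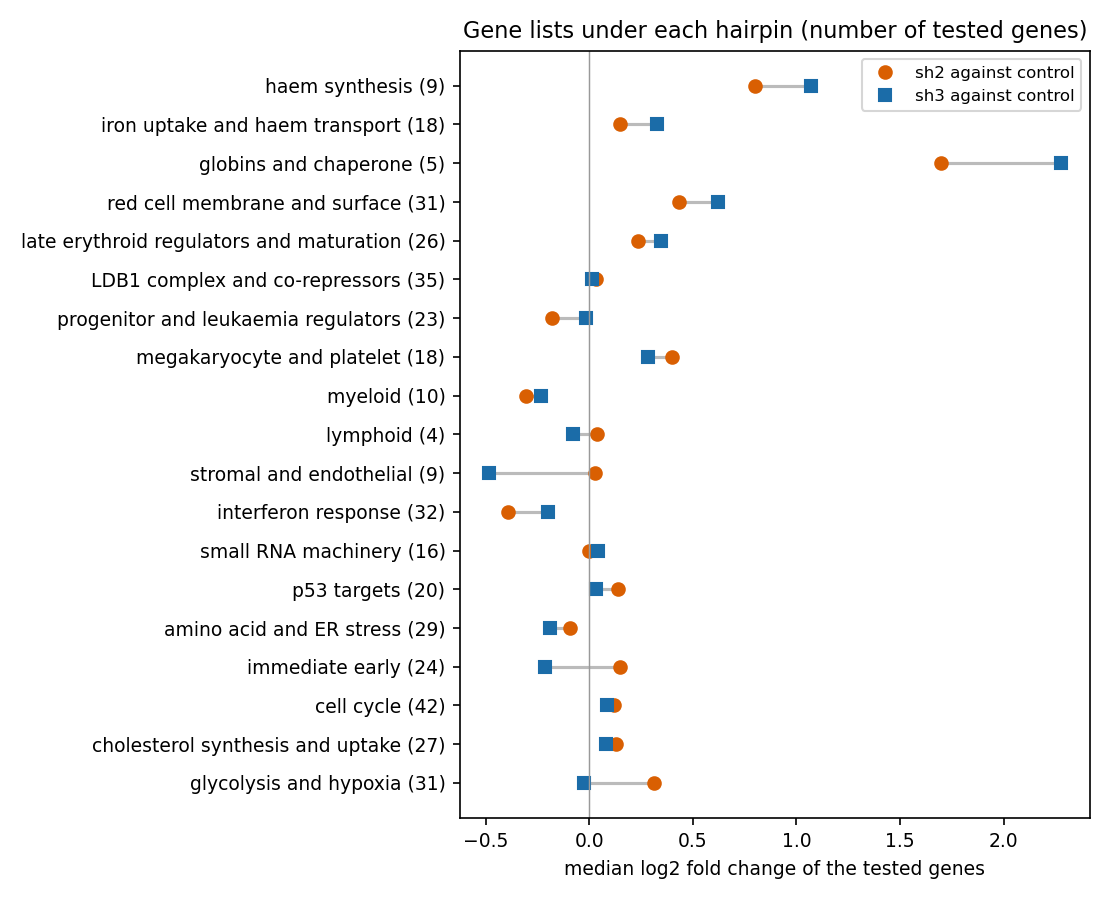
Median log2 FC of the tested genes of each list for sh2 against control (circles) and sh3 against control (squares), with the number of tested genes. Haem synthesis lay at 0.80 and 1.07, while glycolysis and hypoxia lay at 0.31 with sh2 and -0.02 with sh3 and immediate early genes at 0.15 and -0.21.

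Apart from the erythroid lists, 3 lists held 6 or more genes called between the hairpins. Of 31 genes of glycolysis and hypoxia, *Aldoc*, *Pgk1*, *Eno2*, *Pkm*, *Bnip3*, *Ankrd37* and *Ndrg1* were called, each lower with sh3 (1.55% of all tested genes were), with a median log2 FC of -0.34. *Bnip3*, which marks mitochondria for removal and responds to low oxygen, was at 32.3 and 31 CPM in the controls, 91.3 and 62.9 CPM with sh2 and 44.4 and 41.4 CPM with sh3. *Pgk1*, a glycolytic enzyme, was at 431.2 and 444.9 CPM in the controls, 686.9 and 571.6 CPM with sh2 and 415.1 and 411.1 CPM with sh3. *Pkm*, pyruvate kinase, instead fell with sh3, with 1196 and 1405 CPM in the controls, 1321 and 1277 CPM with sh2 and 867.2 and 902.6 CPM with sh3. Replicate 1 of sh2 was the higher of its group for *Bnip3* and *Pgk1*, and without it *Pgk1* had a log2 FC of -0.47. Against control 9 of the 31 were called higher and 1 lower with sh2, and 4 higher and 4 lower with sh3, where the shares of all tested genes were 3.37% and 3.71% with sh2 and 4.25% and 4.52% with sh3.

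Of 24 immediate early genes, which answer growth signals within minutes, *Jund*, *Egr1*, *Ier2*, *Ier3*, *Nr4a1*, *Klf6* and *Spry4* were called, each lower with sh3 (1.55% of all tested genes were). *Egr1* was at 62.7 and 59.7 CPM in the controls, 67.9 and 88.6 CPM with sh2 and 39.2 and 41.6 CPM with sh3 (log2 FC -0.96 ± 0.11 SE, adjusted p = 0.00161, edgeR). The median log2 FC of the list was -0.37. *Jund*, *Nr4a1*, *Ier2* and *Ier3* went under the fold limit without replicate 2 of sh2, with log2 FCs of -0.40, -0.41, -0.47 and -0.49. Without replicate 2 of sh3 *Ier2* (-0.499) and *Ier3* (-0.49; adjusted p = 0.0854, edgeR) did so too. Of 32 interferon response genes, *Irf7*, *Mx2*, *Usp18*, *Dhx58*, *Parp14* and *Irgm1* were called, each higher with sh3 (1.79% of all tested genes were), with a median log2 FC of 0.12. *Irgm1*, an immunity-related GTPase, was at 31.4 and 31.8 CPM in the controls, 17 and 17.6 CPM with sh2 and 27.2 and 26.4 CPM with sh3. Against control 11 of the 32 were called with sh2 and 7 with sh3, in each case lower (3.71% and 4.52% of all tested genes were). *Irf7* went under the fold limit without replicate 2 of sh2 (log2 FC 0.40), *Parp14* without replicate 2 of sh3 (0.49), and the adjusted p of *Usp18* was 0.0754 (edgeR) without replicate 1 of sh3.

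Of 18 megakaryocyte and platelet genes, *Itga2b*, *Itgb3* and *P2rx1* were lower with sh3 (1.55% of all tested genes were). *Itgb3*, the integrin beta 3 chain, was at 10.6 and 11.1 CPM in the controls, 22.4 and 29.1 CPM with sh2 and 15.4 and 17.8 CPM with sh3. *Itga2b*, its alpha partner on platelets, was at 125.6 and 131.4 CPM in the controls, 199.9 and 206.1 CPM with sh2 and 142 and 144.6 CPM with sh3. Both were thus further from control with the hairpin that left more *Cbfa2t3*. *P2rx1*, an ATP-gated ion channel, was instead graded, with 35.8 and 38.6 CPM in the controls, 31.5 and 35 CPM with sh2 and 21.9 and 24.1 CPM with sh3. All of these calls lost the fold limit without replicate 2 of sh2 (log2 FCs of -0.43 for *Itgb3*, -0.49 for *Itga2b* and -0.46 for *P2rx1*), and those of *Itga2b* (-0.49) and *P2rx1* (-0.47) also without replicate 1 of sh3. Among 27 genes of cholesterol synthesis *Idi1* and *Sqle* were higher with sh3 (1.79% of all tested genes were), and the median log2 FC of the list was -0.03. *Sqle*, squalene epoxidase, was at 162.7 and 165.5 CPM in the controls, 105.8 and 109.5 CPM with sh2 and 182.9 and 191.4 CPM with sh3. Called in the other lists were *Cebpb* among 10 myeloid genes, *Bbc3* among 20 p53 targets, *Ddit4* among 29 amino acid and ER stress genes, and *Ccnd2* and *Cdkn2d* among 42 cell cycle genes, where 3.34% of all tested genes were called. *Cebpb* went under the fold limit without replicate 1 of sh2 (log2 FC 0.44) or replicate 2 of sh3 (0.49). Of 16 genes of the small RNA machinery edgeR called 0 and DESeq2 0, and 3 had an unadjusted p under 0.05.

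The same genes were then read in libraries that took no part in their choice. Of the 54 graded genes that rose, 33 (61.1%) were called higher in *Irf2bp2* KD against its own control, where 10.1% of all tested genes were. Of the 52 of them tested in MEL induction, 32 (61.5%) were called higher there, against 12.4% of all tested genes. The induction calls number 3187 in all, and 1485 or 1400 without non-induced replicate 1 or 2 and 1789 without induced replicate 2. Of the 44 graded genes that fell, 25 (56.8%) were lower in *Irf2bp2* KD and 26 (59.1%) in induction, against 12.5% and 14.8% of all tested genes. The median log2 FC of the graded genes that rose was 1.17 in *Irf2bp2* KD and 1.60 in induction, and of those that fell -0.64 and -1.20. *Slc4a1* had log2 FCs of 5.13 in *Irf2bp2* KD and 7.23 in induction.

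The 148 opposed genes stood closer to the background in these libraries. Of the 81 that were higher with sh3, 15 (18.5%) were higher and 10 (12.3%) lower in *Irf2bp2* KD, and of 79 tested in induction 19 (24.1%) were higher and 13 (16.5%) lower. The median log2 FCs of these genes were 0.03 and 0.04. Of the opposed genes lower with sh3, 14 of 65 (21.5%) were lower in *Irf2bp2* KD and 13 of 64 (20.3%) in induction. Genes that stood apart with sh2 alone and were higher with sh3 were called higher in 4 of 38 (10.5%) in each of *Irf2bp2* KD and induction, and lower in 8 of 38 (21.1%) and 6 of 38 (15.8%). Of the genes that rose with sh3 alone, 6 of 23 (26.1%) were higher in *Irf2bp2* KD and 6 of 22 (27.3%) in induction. Small classes stood further from it: 9 of 16 reversed genes lower with sh3 (56.2%) were lower in induction, 10 of 23 reversed genes higher with sh3 (43.5%) were lower in *Irf2bp2* KD, and 7 of 16 genes lower with sh3 that stood apart with sh2 alone (43.8%) were higher there. *Hmga1*, which fell with sh2, and *Adipor1* and *Tmem258*, which fell with sh3, had log2 FCs of 0.85, 0.44 and 0.42 in *Irf2bp2* KD.

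**Figure D4:**
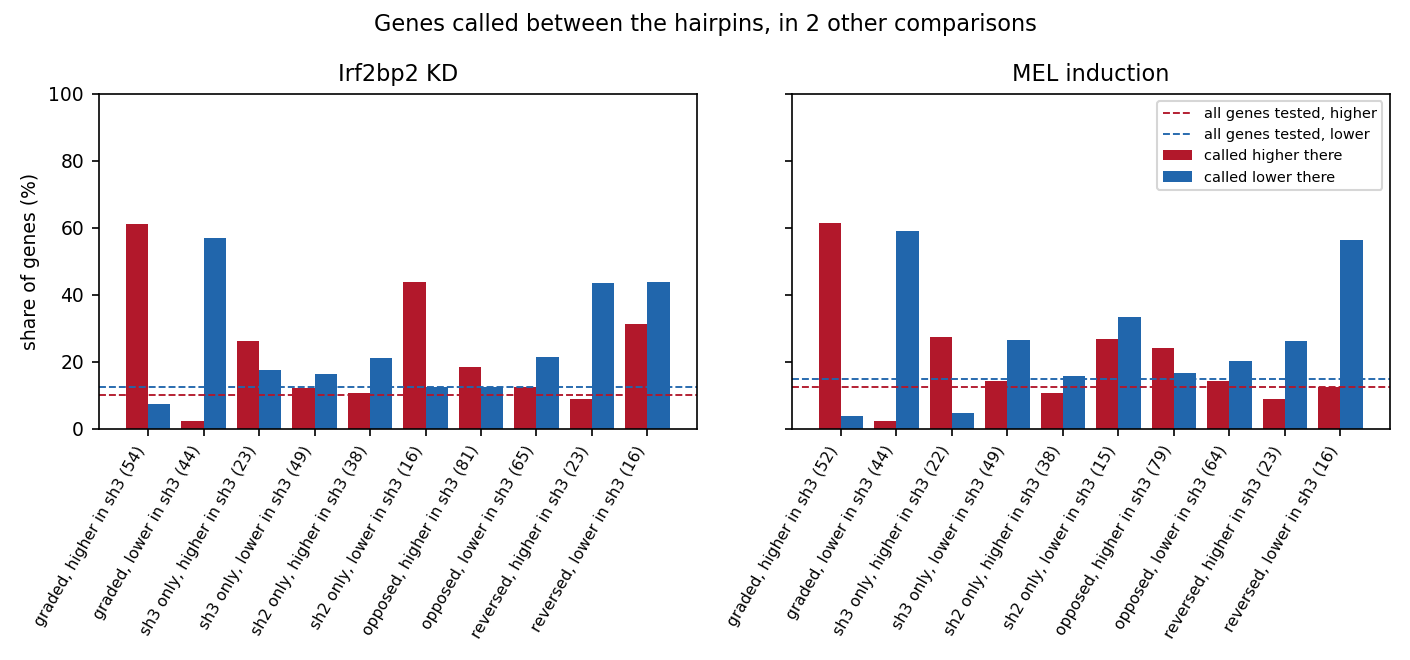
Share (%) of the genes called between the hairpins that were called higher or lower in *Irf2bp2* KD (left) and in MEL induction (right), by order and direction, with the number tested; dashed lines give the share of all tested genes. Only the graded genes exceeded 50% in the direction of sh3 in both.

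Binding sites of ETO2 in MEL cells were given to the nearest gene start within 1 Mb. The site list marks each site with a code of 0, 1 or 2. Codes 0 (1760 sites) and 1 (2730 sites) are the sites of ETO2, alone and shared with IRF2BP2. These codes were read from the class sizes in the methods of the study. In all, 2314 of 11424 placed genes had a site (20.3%). Of the 52 placed graded genes that rose with sh3, 33 had one (63.5%, 95% Wilson interval 49.9 to 75.2%), and of the 43 graded genes that fell 12 had one (27.9%, 16.7 to 42.7%). Of the other called genes, 50 of 158 higher with sh3 (31.6%, 24.9 to 39.3%) and 35 of 144 lower (24.3%, 18.0 to 31.9%) had a site. Among these, 8 of 16 reversed genes lower with sh3, 9 of 23 reversed genes higher with sh3 (39.1%, 22.2 to 59.2%) and 8 of 21 genes that rose with sh3 alone (38.1%, 20.8 to 59.1%) had one. At sites above the median fold enrichment, which 11.9% of placed genes had, the reversed genes higher with sh3 had one in 3 of 23 (13.0%). Reversed genes lower with sh3 had such a site in 5 of 16 (31.2%) and genes that rose with sh3 alone in 7 of 21 (33.3%). For graded genes that rose it was 20 of 52 (38.5%). The intervals cover counting error only.

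The sequences of the hairpins are not given in the sources used here. To see what genes that follow 1 hairpin share, all words of 8 letters held by the 3′ UTRs of at least 50 genes, 53055 words, were ranked by the mean log2 FC between the hairpins of the genes that hold them, scaled by their number. The sense strand of the longest annotated 3′ UTR was searched, in 11261 of the tested genes (91.1%). The lowest with sh2 was GATGTTCA, which 301 of the 3′ UTRs held (2.67%), and the lowest with sh3 was CTTTGTAA, which 756 held (6.71%). Each word occurs in transcripts of *Cbfa2t3* itself, at 1 place in 3 of its 4 annotated transcripts. Of the 5 words lowest with sh3, CACCCGAC occurs in them too, and GGCCGCAT, AGTGCCCC and CTCCCTAG do not. The share of all ranked words that occur there was not computed. The place of GATGTTCA is in the coding sequence, where the word spans an exon junction (chr8:125158849-125158860 and chr8:125158311-125158328, minus strand, mm9), and that of CTTTGTAA in the 3′ UTR (chr8:125154203-125154232, minus strand). The sites are shown with the word in capitals and 11 bases on either side, from the GENCODE transcripts of mm9, because these are the letters that the target shares with the genes below.
Cbfa2t3, coding: ggtctcagctaGATGTTCAccgggacttca
Cbfa2t3, 3′ UTR: ggcgtctctgtCTTTGTAAagtccacatga

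The words were chosen by their values, so their place in this comparison is a description. They were also chosen with replicate 1 of both hairpins alone and read in replicate 2, and the reverse. Each time GATGTTCA and CTTTGTAA were the words at the ends of the list, and they were again at the ends, rank 1 of 53055, in the replicates not used. In replicate 2 the genes with GATGTTCA had a median log2 FC of sh3 over sh2 of 0.16 against -0.015 of genes with no part of the word, and in replicate 1 of 0.14 against -0.001. For CTTTGTAA these medians were -0.05 against 0.0 in replicate 2 and -0.03 against 0.01 in replicate 1.

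Against the controls, GATGTTCA ranked 1 from the lowest with sh2 and 29520 with sh3. CTTTGTAA ranked 1 from the lowest with sh3 and 3017 with sh2. These ranks use the hairpin libraries that chose the words, so they too are a description. In libraries with neither hairpin GATGTTCA ranked 16098 of 52896 words in *Irf2bp2* KD and 22707 of 52459 in induction, and CTTTGTAA 3908 and 47513. Genes with all 8 letters of GATGTTCA had a median log2 FC of -0.07 in *Irf2bp2* KD against 0.02 with none, and those with CTTTGTAA -0.07 against 0.03. In induction these medians were 0.05 against -0.09 and 0.11 against -0.12. None of 1738 mature mouse miRNAs in RefSeq had bases 2 to 8 that pair with letters 1 to 7 or 2 to 8 of either word.

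The size of the change followed how much of the word a 3′ UTR held. The sh2 and sh3 values in this paragraph and the next come from the libraries that chose the words, and are a description. For genes with all 8 letters of GATGTTCA the median log2 FC of sh2 against control was -0.15, with letters 1 to 7 alone -0.09, with letters 2 to 8 alone -0.05, with the middle 6 letters -0.01 and with none 0.03. For sh3 against control the same medians lay between -0.02 and 0.01. Per library, the medians of the 301 genes were -0.16 and -0.16 with sh2 and -0.006 and -0.008 with sh3, relative to the mean of the controls. Between the hairpins 15.3% of the 301 genes were called higher with sh3, against 1.04% of genes with no part of the word. The 3′ UTRs with the word were longer, with a median of 2620 bases against 795. Among 3′ UTRs of over 1754 bases the medians of sh2 against control were -0.13 in 218 genes with the word and -0.003 in 1629 without any of it. In 288 genes with GATGTTCA in the coding sequence and no part of it in the 3′ UTR, the median of sh2 against control was -0.07, against 0.03 in 7602 with neither.

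For CTTTGTAA the change was smaller. The median log2 FC of sh3 against control was -0.09 in the 756 genes with all 8 letters and 0.02 in genes with none, and per library -0.10 and -0.08 with sh3 against -0.04 and -0.01 with sh2. Letters 1 to 7 or 2 to 8 alone gave -0.02 and -0.008. The 3′ UTRs with the word were longer here too, with a median of 2448 bases against 633. Among 3′ UTRs of over 1754 bases the median with the word and without any of it was -0.08 and 0.01 for sh3 against control, and -0.09 and 0.03 in *Irf2bp2* KD, where neither hairpin was present. Among 3′ UTRs of middle length, down to 661 bases, it was -0.10 and 0.03 with sh3 and -0.02 and 0.04 in *Irf2bp2* KD, and among shorter ones -0.15 and 0.02 with sh3 and -0.04 and 0.03 in *Irf2bp2* KD. Called lower with sh3 were 3.70% of the 756 genes and 1.47% of those with none. Genes with the word in the coding sequence alone had a median of -0.01 in 74 genes, against 0.02 in 5846 with neither.

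**Figure D5:**
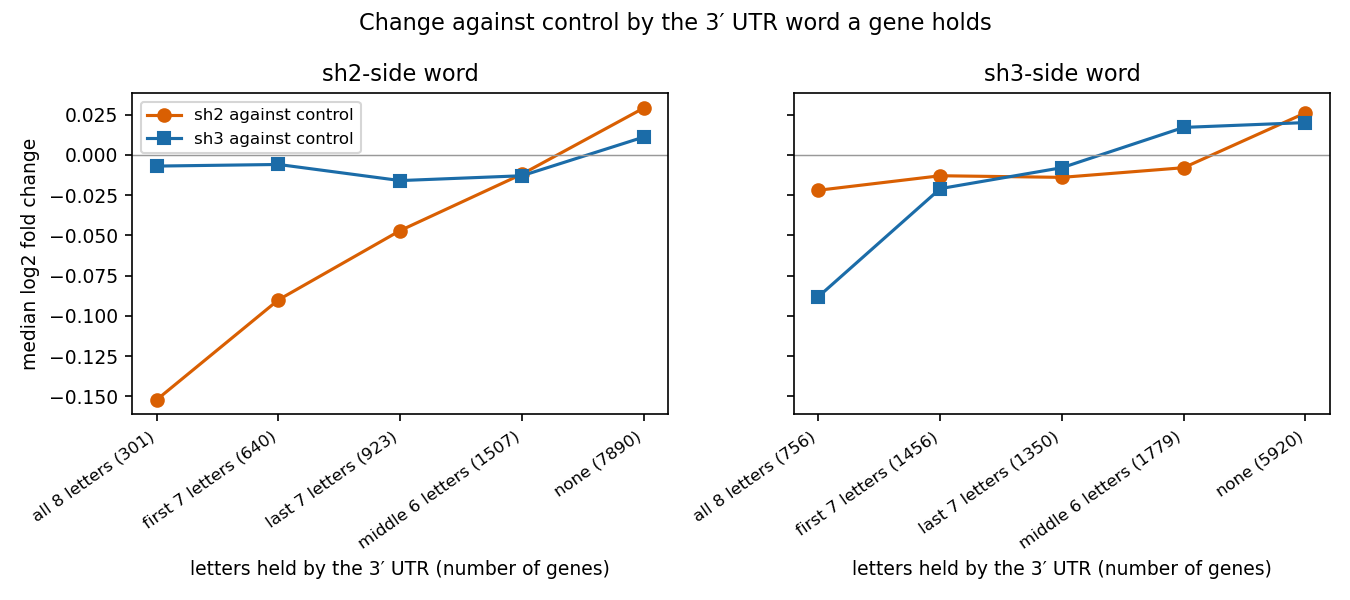
Median log2 FC against control (sh2 circles, sh3 squares) by how much of a word the 3′ UTR of a gene held, for the word lowest with sh2 (left) and the word lowest with sh3 (right), with numbers of genes. With the left word sh2 went from 0.03 to -0.15 while sh3 stayed between -0.02 and 0.01, and with the right word sh3 reached -0.09.

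By order, GATGTTCA was held by 15 of 37 genes that were low with sh2 alone (40.5%), by 9 of 23 reversed (39.1%) and 18 of 76 opposed genes (23.7%) that were higher with sh3, and by 3 of 50 graded genes that rose (6.0%). Of all 3′ UTRs searched 2.67% held it. CTTTGTAA was held by 7 of 46 genes low with sh3 alone (15.2%), 13 of 64 opposed genes lower with sh3 (20.3%) and 7 of 43 graded genes that fell (16.3%), and by 1 of 50 graded genes that rose (2.0%). Of all 3′ UTRs searched 6.71% held this word. The values that chose the words also help to set these orders, and the length of the 3′ UTRs was not allowed for. *Hmga1*, *Dact1*, *Bcl2*, *Cyp20a1* and *Parp14* held GATGTTCA, and *Adipor1*, *Tnfrsf13c*, *Klf6* and *Itgb3* held CTTTGTAA. *Ccnd2*, *Tmem258* and *Aacs* did not hold the 8 letters in the 3′ UTR searched. *Cttnbp2* held GATGTTCA but was not low with sh2, and *Itgb3* was above control with both hairpins.

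Sites of called genes are shown next, with the word in capitals and all on mm9. *Hmga1*, *Adipor1* and *Tnfrsf13c* were among the 8 largest changes of their direction, and *Cyp20a1* among the 4 largest reversed genes. *Bcl2*, *Parp14* and *Klf6* were called members of lists. *Ermp1*, *Rab8a*, *Smurf2* and *Rab12* were added after their values were seen because they are well expressed. Not all called genes with a word are shown. The first 6 hold the word of sh2 and the last 5 that of sh3.
Hmga1, chr17:27700308-27700337, plus strand: taccagcgtcaGATGTTCAtcctcctgaat
Ermp1, chr19:29685128-29685157, minus strand: accactaacaaGATGTTCAgtttcaggcat
Rab8a, chr8:74704680-74704709, plus strand: ggctctaatcgGATGTTCAttttctatcta
Cyp20a1, chr1:60444751-60444780, plus strand: ttttcaatcttGATGTTCAtaatttgacct
Bcl2, chr1:108437688-108437717, minus strand: gttaaacccatGATGTTCAttcacttagaa
Parp14, chr16:35834143-35834172, minus strand: atgttgacaccGATGTTCAggctacctagg
Adipor1, chr1:136328593-136328622, plus strand: ccccgtccttaCTTTGTAAcctggctgata
Tnfrsf13c, chr15:82052308-82052337, minus strand: caatctcatttCTTTGTAAagctatttagc
Klf6, chr13:5869504-5869533, plus strand: atctaaagaatCTTTGTAAgatttttgtaa
Smurf2, chr11:106683522-106683551, minus strand: ctatacctgctCTTTGTAAgaaattaaata
Rab12, chr17:66844923-66844952, minus strand: ttcctttcgcaCTTTGTAAcccaagtcagc

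*Ermp1*, a peptidase of the endoplasmic reticulum, was at 264.4 and 256.3 CPM in the controls, 120.5 and 129.1 CPM with sh2 and 261 and 280.7 CPM with sh3. *Rab8a*, a small GTPase of membrane traffic, was at 101.5 and 103.1 CPM in the controls, 53.1 and 52.5 CPM with sh2 and 106.5 and 104.1 CPM with sh3. *Cyp20a1*, a cytochrome P450, was at 26.7 and 25.4 CPM in the controls, 12.3 and 12.2 CPM with sh2 and 24.4 and 24.1 CPM with sh3. In each of these the sh2 libraries lay far under the others, and the sh3 libraries of *Cyp20a1* also lay just under its controls. Their log2 FCs of sh2 against control were -1.06, -0.95 and -1.09, and that of *Cbfa2t3* was -0.89. *Smurf2*, a ubiquitin ligase, was at 41.5 and 39.8 CPM in the controls, 39.8 and 41 CPM with sh2 and 26 and 26.1 CPM with sh3. *Tnfrsf13c*, a receptor for the B-cell survival factor BAFF, was at 7.22 and 7.03 CPM in the controls, 8.98 and 10.7 CPM with sh2 and 3.42 and 3.86 CPM with sh3. *Rab12*, another small GTPase, was at 19.6 and 19.5 CPM in the controls, 25.1 and 25.1 CPM with sh2 and 14.2 and 13.6 CPM with sh3. A match of letters is a description and not a site of binding, and whether the words belong to the hairpins was not tested.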

How the data were processed

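The authors mapped the reads with Tophat2 (2.0.10) to mm9 and deposited raw read counts per RefSeq gene, made with rpkmforgenes; their RPKM values and DESeq2 fold changes and p-values stand beside them and were not used. The labels' notes also name Bowtie. The site list holds the authors' fold enrichment, the deposited ratio of ChIP to IgG reads at sites of at least 2 of 3 peak callers, and class codes. Counts were fitted in R with edgeR 4.0.16 (TMM, filterByExpr, quasi-likelihood test, Benjamini-Hochberg adjustment over all tested genes), on the 4 hairpin libraries for sh3 against sh2 and on 6 libraries for comparisons with control. SEs are the log2 FC over the root of the F statistic. Library order used log2 CPM with a prior count of 2. A class for genes in which both hairpins overlap the controls was added, which held no called gene of edgeR. Words were ranked in Python 3.11.15 by mean log2 FC over its expected spread at that number of 3′ UTRs. Scripts were tested on simulated data. Genes were named by a rule: *Cbfa2t3*, the 8 largest rises and falls, the 4 largest of each order, the 5 largest departures either way and called members of 19 lists, not all of which are printed, and 1 item is not reported here. The members, lists and tests were chosen with earlier results of these data known, and the words, with the 7 genes examined for them, after their values were seen. Alternatives are given at the end. Libraries of *Gfi1b* and *Kdm1a* KD were not used here.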

Additional observations from a re-analysis of the deposited data

How the results depend on the processing

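Between the hairpins, 413 genes were called. With edgeR under DESeq2 size factors, with DESeq2, with no filter, at least 10 counts in every library or 6 libraries as 3 groups, the count lay within 1.5 times of this, as did the counts in each direction. It was 656 (350 lower with sh3) by unadjusted p, 1268 (714 higher, 554 lower) without a limit on the fold and 54 (24 higher, 30 lower) at an absolute log2 FC of 1. Leaving out each hairpin library in turn gave 432 to 615 genes, 204 to 293 higher and 216 to 322 lower, the most without replicate 1 of sh2, with 320 to 375 of the 413 among them. A group of 1 library was then assumed to vary like the other. The share of higher calls stayed between 44.4 and 56.3%.

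Replicate numbers 1 and 2 are shared by the groups, but nothing says that they mark a culture or day. Deviations of same-numbered libraries correlated by 0.252 for control and sh2, 0.118 for control and sh3 and 0.246 for sh2 and sh3. With a replicate block 622 genes were called between the hairpins, of which 336 were lower, and 411 of the 413 remained; with the replicate block in 6 libraries 310 were lower. With the block the departures went from 364 to 464, sh2 against control from 887 to 977 and sh3 against control from 1100 to 1201.

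Departures numbered 288 to 468 over all alternatives that kept 6 libraries, and 284 to 384 without each library. Sh2 against control gave 653 to 894 and sh3 against control 953 to 1014 without each library. MEL induction, with 3187 called genes, gave 1400 to 3382 without each library in turn, with 1485 and 1400 without non-induced replicate 1 and 2 and 1789 without induced replicate 2, and *Irf2bp2* KD lay at 2510 to 3028. Without either control library, an alternative chosen after seeing the data, only sh3 left the range of the controls in 36 to 39 genes and only sh2 in 25 to 27. With 100 kb as the limit 19.1% of placed genes had an ETO2 site. With sites above the median fold enrichment 11.9% had one, 38.5% of graded genes that rose, 16.3% of those that fell, and 19% and 16% of other genes higher and lower with sh3. The difference in the median log2 FC between genes with and without GATGTTCA was 0.15, and 0.126 among long 3′ UTRs alone; it was 0.148 to 0.168 without each library, and -0.06 to -0.027 for CTTTGTAA, alternatives also chosen after seeing the data. Of 1138 values of 82 genes between the hairpins under these settings, none of which turned in direction, 105 lost and 27 gained a call. The cause of these changes was not tested. In the smallest library, with 48974735 counts, the floor of 3 counts lies at 0.0613 CPM, and genes near it are uncertain.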
